A study of Mus musculus with 5 samples.

Results

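Transcript levels of 6 genes that write, copy or remove DNA methylation (Dnmt3a, Dnmt3b, Dnmt3l, Dnmt1, Uhrf1 and Tet1) were followed in mouse epiblast stem cells after 12 h with inhibitors of 2 kinases, with a cytokine, or with all of them together. The members were chosen by name, and every probe annotated to them was read out. Of the 6 genes, 5 had a named probe, with 9 probes in all among 25697 on the array, and these 5 belong to 16593 named genes. No probe was annotated to Tet1, so it has no value here. The 4 genes Dnmt3b, Dnmt3l, Dnmt1 and Uhrf1 were detected on all 5 arrays by each of their 7 probes, and both probes of Dnmt3a were detected on none.

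The cells were the E3 line of epiblast stem cells, which are pluripotent cells of the post-implantation epiblast. All cultures had grown on inactivated CF1 mouse embryonic fibroblasts in KSR medium with 5 ng/ml FGF2, so RNA of the feeder cells can be part of every sample. At semiconfluence the medium was exchanged for 12 h for KSR medium with 1 µM PD0325901, which blocks the kinase MEK (PD), with 3 µM of the GSK3 inhibitor CHIR99021 (CH), with the cytokine LIF at 1000 U/ml (LIF), with these 3 agents at the same doses (PCL), or with no supplement (untreated). The untreated medium thus lacked the earlier FGF2 too. Each condition had 1 array, so no difference has a replicate check and no test was made.

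CpG methylation is set on unmethylated DNA by the de novo methyltransferases Dnmt3a and Dnmt3b. Dnmt3l is a relative without enzyme activity that binds them and stimulates them. Dnmt1 copies the pattern after DNA replication, brought to hemimethylated sites by Uhrf1, and Tet enzymes oxidise methylcytosine as a first step of its removal. The passage of the embryo through implantation is known as a period of genome-wide de novo methylation, and epiblast stem cells express Dnmt3b strongly.

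The regions just before the transcription starts of Dnmt3l and Dnmt3b are shown because these are the members with the widest spread between the arrays. Both are the 250 bases before the start with the lowest coordinate in the RefSeq promoter table (GRCm38.p6, plus strand), at chr10:78042037-78042286 for Dnmt3l and at chr2:153649199-153649448 for Dnmt3b. The capitals mark CpG, the pair of bases that these enzymes methylate.
Dnmt3l: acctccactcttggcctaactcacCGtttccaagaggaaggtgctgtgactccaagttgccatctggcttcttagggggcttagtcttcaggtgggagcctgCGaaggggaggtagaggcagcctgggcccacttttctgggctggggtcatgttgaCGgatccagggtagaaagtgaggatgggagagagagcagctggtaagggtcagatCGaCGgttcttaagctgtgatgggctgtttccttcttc
Dnmt3b: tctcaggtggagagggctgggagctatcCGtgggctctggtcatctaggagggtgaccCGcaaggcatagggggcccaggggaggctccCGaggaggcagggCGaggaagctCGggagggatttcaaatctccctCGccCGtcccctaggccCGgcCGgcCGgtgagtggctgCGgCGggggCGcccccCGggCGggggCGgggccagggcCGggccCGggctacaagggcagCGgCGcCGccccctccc
The Dnmt3l region held 5 CpG and the Dnmt3b region 21, against a median of 6 over 32851 such regions of all genes in the table. Of these regions, 44.4% had fewer CpG than that of Dnmt3l and 83.7% had fewer than that of Dnmt3b. Both strands were searched for a fixed form of an ETS motif (CCGGAA), a TCF/LEF motif (CTTTGA) and a STAT site (TTCNNNGAA). These forms occurred in 12.0%, 13.8% and 7.02% of all regions. None of them was found in either of the printed regions. Shorter or variant forms of the motifs were not searched for, so their absence is not shown. The arrays do not tell which start was used, and 2 further starts of Dnmt3l are listed, with 4 and 3 CpG before them; one of these regions held 1 match to the STAT letters.

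The arrays as a whole detected between 10389 and 10898 probes at a detection p under 0.01, and over their detected probes the arrays had median bead errors of 4.13% to 4.39% of the intensity. Levels below are log2 intensities after background correction and normalization across the arrays, and the value after ± is the standard error over beads, which leaves out the spread between cultures. The agents were visible in their known targets. Dusp6, a phosphatase induced by ERK, differed from untreated by -1.29 ± 0.11 in PD and -1.85 ± 0.12 in PCL. Axin2, a Wnt target, differed by 1.46 ± 0.14 in CH and 1.48 ± 0.15 in PCL, and the STAT3 target Socs3 by 1.79 ± 0.10 in LIF and 1.30 ± 0.10 in PCL. Of 10 epiblast stem cell markers with a probe, 8 or 9 were detected on each array, Pou5f1, Otx2 and Fgf5 among them.

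Dnmt3l was the member with the clearest split between the conditions, and the split followed the MEK inhibitor. Its brighter probe stood at 6.88 ± 0.09 in PD and 6.93 ± 0.09 in PCL, against 8.09 ± 0.07 in CH, 7.86 ± 0.06 in LIF and 8.05 ± 0.06 in untreated cells. Its dimmer probe stood at 6.71 ± 0.08 in PD and 6.70 ± 0.09 in PCL, against 7.86 ± 0.08 in CH, 8.01 ± 0.08 in LIF and 7.83 ± 0.07 in untreated cells. On both probes the 2 arrays with PD0325901 lay below the 3 arrays without it, and the groups did not overlap.

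Before any processing the same split was present in the scanner intensities of the brighter probe, which read 191 in PD and 178 in PCL, against 357 in CH, 324 in LIF and 314 in untreated cells. The difference of PD from untreated was -1.17 ± 0.11 on the brighter probe, which is 2.25-fold lower, and -1.12 ± 0.11 on the dimmer one. The difference of PCL from untreated was -1.12 ± 0.11 and -1.13 ± 0.12. Without background correction these values were -0.84 and -0.78 in PD and -0.81 and -0.78 in PCL, short of 2-fold, and an offset of 50 in place of 16 also left them between -0.98 and -0.92.

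Few genes moved as far. With PD, 14 of the 7761 genes compared lay below the value of Dnmt3l, and with PCL 33 of 7652 did. At least 2-fold lower were 0.451% of the genes with PD and 0.680% with PCL, and 1 of the 4 detected members, Dnmt3l, in each case, counting each gene by its brighter probe. Both arrays with PD0325901 lay below all 3 others for 10.2% of 8138 detected genes, so the absence of overlap alone is common. The width of the gap was less so: the brighter probe of Dnmt3l lay 0.94 below the lowest array without PD0325901, the 6th widest gap of these genes. Wider were the ERK-induced transcription factors Egr1 and Etv4, the phosphatase Dusp4, the semaphorin Sema7a and Psors1c2, which were looked up after the gaps had been seen.

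**Figure D1:**
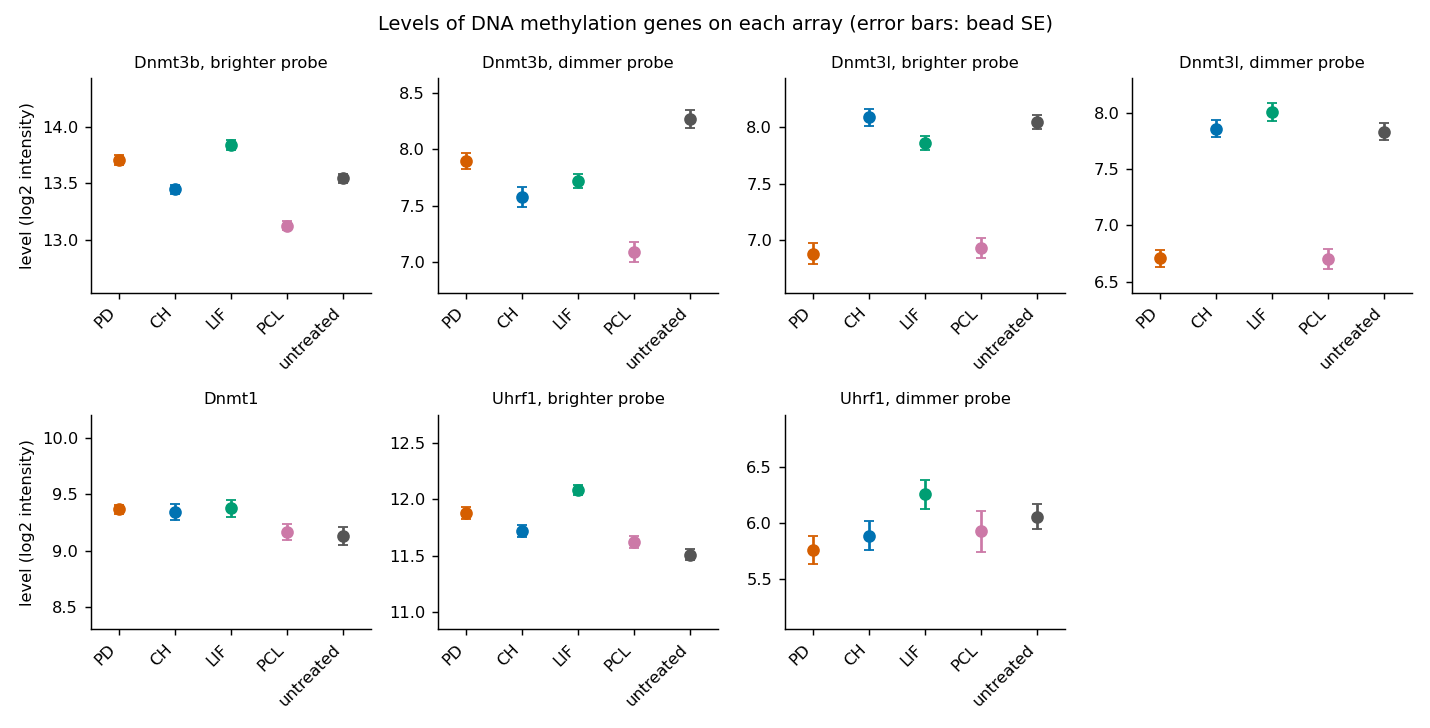
Normalized level (log2 intensity) of the 7 detected probes on the arrays PD, CH, LIF, PCL and untreated, 1 array each, with the bead standard error as error bar; every panel spans the same height. Dnmt3l stood near 7 in PD and PCL and near 8 elsewhere on both probes, whereas Dnmt1 stayed between 9.13 and 9.37.

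The other agents left Dnmt3l close to untreated. With CH it differed by 0.04 ± 0.10 and 0.03 ± 0.11 on its 2 probes. With LIF the probes gave -0.19 ± 0.09 and 0.17 ± 0.11, opposite in sign, and the brighter one turned to 0.01 under median scaling. PCL differed from PD by 0.05 ± 0.13 and -0.00 ± 0.12, so adding CHIR99021 and LIF to the MEK inhibitor left no difference beyond 1.96 bead standard errors. PCL differed from CH by -1.16 ± 0.12 and -1.15 ± 0.12, and from LIF by -0.94 ± 0.11 and -1.30 ± 0.12. In the order of the levels on the brighter probe, CH and untreated did not differ beyond 1.96 bead standard errors, nor did PCL and PD.

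Among 6731 other genes detected on all 5 arrays, those with the pattern closest to Dnmt3l were Rgs16, an inhibitor of G protein signalling, Asphd2, the matrix glycoprotein Tnc, the survival factor Hax1 and C1ql2. Closeness was the root mean square difference of log2 levels centred on their mean over the 5 arrays, and it ran from 0.09 for Rgs16 to 0.23 for C1ql2. Rgs16 differed from untreated by -1.06 in PD, -0.13 in CH, -0.23 in LIF and -1.21 in PCL. These differences share the untreated array.

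**Figure D2:**
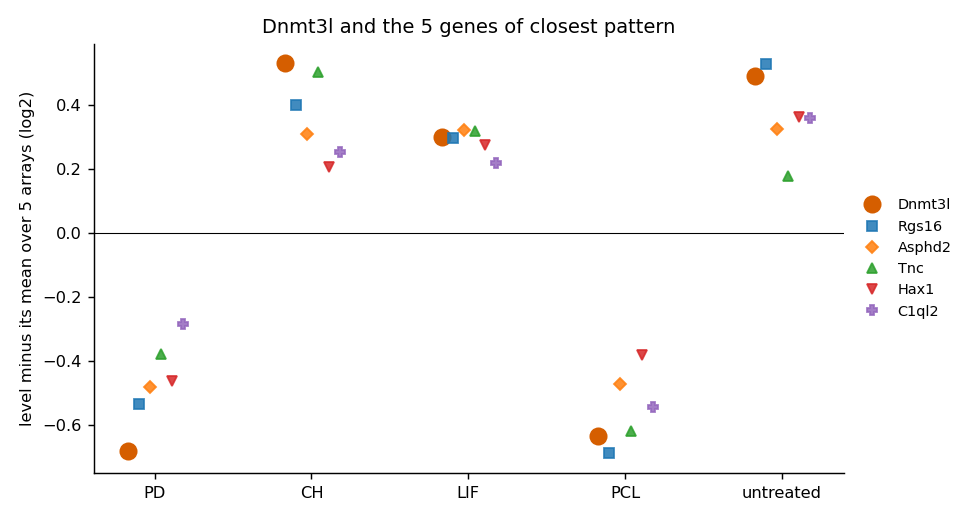
Level minus its mean over the 5 arrays (log2) of Dnmt3l, large circles, and of the 5 genes closest to it, on the arrays PD, CH, LIF, PCL and untreated. All 6 genes lay below their mean with PD and PCL and above it on the other 3 arrays. The 5 genes were chosen for closeness on these same arrays, so the shared split follows from the choice.

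Dnmt3b, the main de novo enzyme of the epiblast, was lowest with PCL on both of its probes, and the probes did not give the same account of the single agents. Its brighter probe, annotated to the RefSeq transcript NM_010068, stood at 13.70 ± 0.04 in PD, 13.45 ± 0.04 in CH, 13.84 ± 0.05 in LIF and 13.12 ± 0.04 in PCL, against 13.54 ± 0.04 in untreated cells. Its dimmer probe, annotated to NM_001003963, stood at 7.89 ± 0.07 in PD, 7.58 ± 0.09 in CH, 7.72 ± 0.06 in LIF and 7.09 ± 0.09 in PCL, against 8.27 ± 0.08 in untreated cells. The 2 levels are on different probes and cannot be set against each other.

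With PCL the difference from untreated was -0.42 ± 0.06 on the brighter probe, or 1.34-fold lower, and -1.18 ± 0.12 on the dimmer probe, or 2.27-fold lower. Among 7652 genes compared with PCL, 710 lay below the first value and 28 below the second. PCL also lay below every single agent on both probes. The difference of PCL was -0.58 ± 0.06 and -0.81 ± 0.11 from PD, -0.33 ± 0.06 and -0.49 ± 0.13 from CH, and -0.72 ± 0.06 and -0.63 ± 0.11 from LIF. The next lowest array was CH on both probes, and the arrays with CHIR99021 lay below the 3 others in each, as they did for 13.0% of all detected genes. CH lay 0.10 ± 0.06 below untreated on the brighter probe and 0.14 ± 0.11 below LIF on the dimmer. Both of these gaps were within 1.96 bead standard errors.

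With PD and with LIF the sign depended on the Dnmt3b probe. With PD the brighter probe gave 0.16 ± 0.06 and the dimmer -0.38 ± 0.11. With LIF the values were 0.30 ± 0.06 and -0.55 ± 0.10, and with CH they were -0.10 ± 0.06 and -0.69 ± 0.12. Under median scaling the LIF values were 0.09 and -0.35. After the median of genes of like genomic span was taken off, the brighter probe gave 0.17 with LIF. The mean over both probes was -0.11 in PD, -0.13 in LIF and -0.39 in CH. On the dimmer probe the untreated array was thus above all 4 treated arrays, whereas on the brighter one it lay between them.

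Dnmt3a, the other de novo enzyme, could not be followed. The detection p-values of its 2 probes lay between 0.335 and 0.994 over the 5 arrays, and neither probe was above background on any of them. No fold is given for Dnmt3a.

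Of the maintenance genes, Dnmt1 spanned less between the arrays than Uhrf1. Dnmt1, with 1 probe, stood at 9.37 ± 0.04 in PD, 9.35 ± 0.07 in CH, 9.37 ± 0.08 in LIF and 9.16 ± 0.07 in PCL, against 9.13 ± 0.08 in untreated cells. Its differences from untreated were 0.23 ± 0.09, 0.21 ± 0.11 and 0.24 ± 0.11 in PD, CH and LIF, and 0.03 ± 0.10 in PCL, which turned to -0.02 under median scaling. The differences in PD, CH and LIF were beyond 1.96 bead standard errors and that in PCL was not. After the median of genes of like genomic span was taken off, they were 0.13 in PD, 0.17 in CH and 0.09 in LIF. These values were within that limit. Neighbours in the order of the Dnmt1 levels did not differ beyond that limit.

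Uhrf1, the partner of Dnmt1, stood at 11.88 ± 0.05 in PD, 11.72 ± 0.05 in CH, 12.09 ± 0.05 in LIF and 11.62 ± 0.05 in PCL, against 11.51 ± 0.05 in untreated cells on its brighter probe. The differences from untreated were 0.37 ± 0.07 in PD, 0.21 ± 0.07 in CH, 0.57 ± 0.07 in LIF and 0.11 ± 0.07 in PCL on this probe. As the mean over both Uhrf1 probes they were 0.04 in PD, 0.02 in CH, 0.39 in LIF and -0.01 in PCL, so the values of PD and CH rested on the brighter probe. The dimmer Uhrf1 probe, which read 123 to 153 on the scanner scale, stood at 5.76 ± 0.13 in PD, 5.89 ± 0.13 in CH, 6.25 ± 0.13 in LIF and 5.92 ± 0.18 in PCL, against 6.06 ± 0.11 in untreated cells. Its differences, from -0.30 ± 0.17 in PD to 0.20 ± 0.17 in LIF, were all within 1.96 bead standard errors of 0. LIF was the highest array on both Uhrf1 probes. Of 7796 genes compared with LIF, 364 lay above the value of the brighter probe.

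On the LIF array 2.96% of the genes stood at least 2-fold from untreated, beside 0.941%, 0.961% and 1.39% with PD, CH and PCL. Most of the genes called with LIF were lower, 2.81% of all against 0.154% higher. On the other arrays neither direction passed 0.706%. None of the 4 detected members was at least 2-fold from untreated with LIF or CH. The median difference with LIF was -0.30 in the shortest of 10 groups of genes by genomic span and between 0.05 and 0.15 in the groups that hold the 4 detected members. The same 2 values were -0.15 and between -0.02 and 0.10 with PD. They were -0.13 and between 0.00 and 0.04 with CH, and -0.05 and between -0.02 and 0.03 with PCL. DNA replication and cell cycle genes, with which Uhrf1 and Dnmt1 are known to be expressed, had a median of 0.31 over 15 detected with LIF, 11 of them above 0, against 0.01, -0.06 and -0.10 in PD, CH and PCL. The helicase subunit Mcm6 stood at 0.87 ± 0.09 in LIF, with its other probes from -0.10 to 0.51, and the topoisomerase Top2a at 0.60 ± 0.07. Their part in the Uhrf1 value was not tested.

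**Figure D3:**
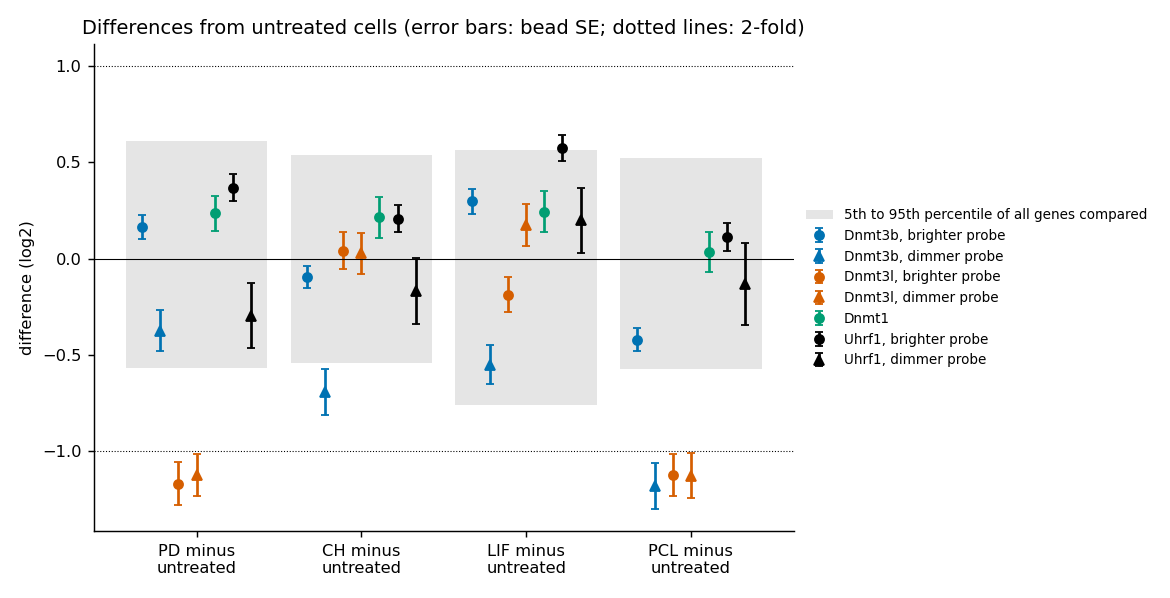
Difference from untreated (log2) of the 7 detected probes with PD, CH, LIF and PCL, with the propagated bead standard error; grey boxes span the 5th to the 95th percentile of all genes compared. Both Dnmt3l probes lay past 2-fold with PD and PCL, and the dimmer Dnmt3b probe with PCL.

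De novo and maintenance genes were set against each other as the mean difference of Dnmt3b and Dnmt3l minus that of Dnmt1 and Uhrf1, on the brighter probes. This contrast was -0.81 ± 0.09 in PD, -0.24 ± 0.08 in CH, -0.35 ± 0.08 in LIF and -0.85 ± 0.09 in PCL. The de novo side had means of -0.50, -0.03, 0.05 and -0.77, and the maintenance side 0.30, 0.21, 0.41 and 0.07, in the same order. Without Dnmt3l the contrast was -0.14 ± 0.08 in PD, -0.31 ± 0.09 in CH, -0.11 ± 0.09 in LIF and -0.49 ± 0.09 in PCL. Leaving out Dnmt3l thus brought the contrasts with PD and LIF within 1.96 bead standard errors of 0, but not those with CH and PCL. The PD contrast joined a lower de novo side, through Dnmt3l, with a higher maintenance side. On these probes it came mostly from the maintenance side with CH and LIF, and mostly from the de novo side with PCL. As means over detected probes, CH gave -0.39 for Dnmt3b, 0.03 for Dnmt3l, 0.21 for Dnmt1 and 0.02 for Uhrf1. The reading for CH thus rested on the brighter probes. With PD the mean over both Uhrf1 probes was 0.04, so the higher maintenance side was smaller there. Over the 4 genes the median difference was 0.20 in PD, 0.12 in CH, 0.27 in LIF and -0.19 in PCL, beside medians of 0.00, -0.01, 0.05 and -0.00 over all genes compared.

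**Figure D4:**
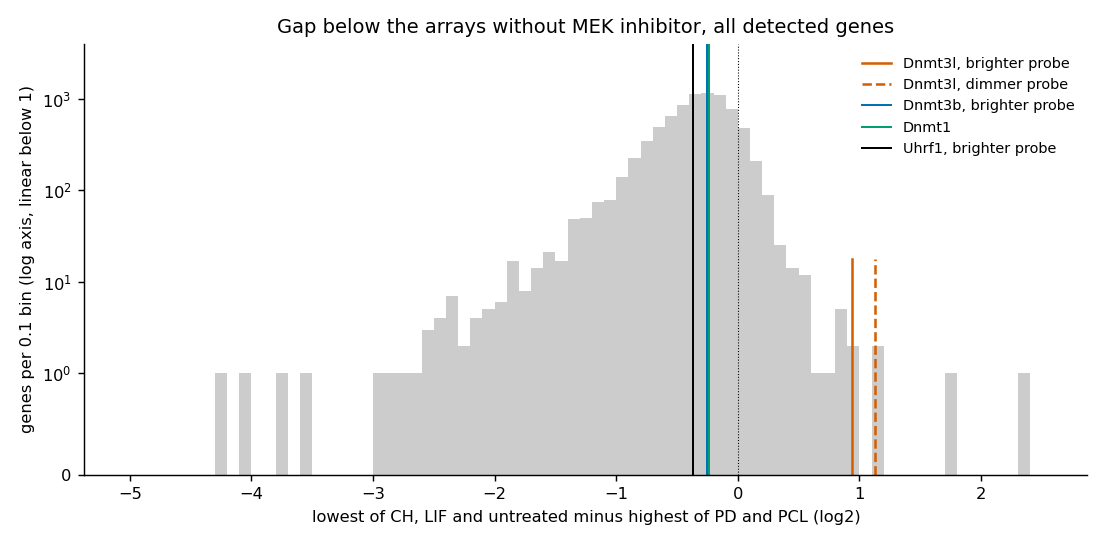
Number of genes (log axis) by the lowest level among CH, LIF and untreated minus the highest of PD and PCL (log2), over 8138 detected genes, with the members as vertical lines. Values above 0 mean that both arrays with PD0325901 lay below the 3 others; the lines of Dnmt3l stand at 0.94 and 1.12, and those of Dnmt1 and of the brighter Dnmt3b and Uhrf1 probes below 0.

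The other genes of the pathway were read from lists chosen with earlier results of these data known. Of 19 cofactors and recruiters of the methyltransferases, 18 had a probe and 14 or 15 were detected in each comparison, none of them at least 2-fold from untreated. Their medians were 0.03 in PD, -0.05 in CH, 0.21 in LIF and 0.02 in PCL. Dppa3, which protects DNA from Uhrf1-dependent methylation, stood at 0.14 ± 0.16 in PD, -0.14 ± 0.15 in CH, -0.59 ± 0.16 in LIF and 0.61 ± 0.14 in PCL. The deubiquitinase Usp7, a partner of Dnmt1, stood at 0.44 ± 0.14 and the chromatin protein Smchd1 at 0.39 ± 0.10 in PD, with the other Smchd1 probe at 0.21. The replication clamp Pcna stood at -0.50 ± 0.19 in LIF. The histone methyltransferase Ehmt2 stood at -0.36 ± 0.09 in CH, with its other probe at 0.02. Another histone methyltransferase, Setdb1, stood at -0.43 ± 0.15 in CH and -0.61 ± 0.16 in PCL. Prdm14, known in embryonic stem cells as a repressor of Dnmt3b and Dnmt3l, was detected on no array.

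Of 15 genes of oxidation and excision, 13 had a probe and 12 were detected, again none at least 2-fold from untreated. That count too stands beside the low shares of all genes given above. Their medians were -0.00 in PD, -0.14 in CH, 0.11 in LIF and -0.18 in PCL. Tet2 had no annotated probe, and neither of the 2 Tet3 probes was detected, so no Tet enzyme had a measured level. The largest difference with PD was that of Gadd45a, a stress-induced gene, at -0.79 ± 0.15, with its other probe at 0.44, and Gadd45a stood at -0.54 ± 0.16 in LIF and -0.33 ± 0.14 in PCL, where the other probe gave 0.21 and 0.12. The sign of Gadd45a thus depended on the probe. Among base excision genes the scaffold Xrcc1 stood at 0.42 ± 0.09 in PD and the uracil glycosylase Ung at -0.31 ± 0.08 in CH, where its other probes ranged from -0.59 to 0.50. The cytidine deaminase Apobec1 was not detected in CH, and its difference there, -0.43 ± 0.22, was within 1.96 bead standard errors of 0. Untreated cells stood 1.33-fold above the dimmest detected probe of the CH array. Apobec1 stood at 0.66 ± 0.19 in LIF. Idh1, which makes the Tet cosubstrate alpha-ketoglutarate, stood at -0.29 ± 0.13 in PCL.

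Of 10 methyl-CpG readers, 7 had a probe and 4 or 5 were detected, and none was at least 2-fold from untreated. At the shares of all genes given above, so few genes would seldom hold any. The binding protein Mbd1 stood at 0.51 ± 0.16 in PD and 0.45 ± 0.17 in PCL, and Mbd3 at -0.43 ± 0.10 in PD. The reader Zbtb33 stood at -0.32 ± 0.14 in CH, with its other probe at 0.14. Of 15 genes of the methyl donor cycle, 11 had a probe and 9 were detected, with medians of -0.21 in PD, -0.01 in CH, 0.15 in LIF and -0.25 in PCL. One of them, Ahcy, which clears S-adenosylhomocysteine, was at least 2-fold higher with LIF, as were 0.154% of all genes, at 1.87 ± 0.16, and stood at 0.86 ± 0.15 in PCL. Shmt1, which supplies one-carbon units from serine, stood at -0.87 ± 0.14 in PD. Mat2b, a regulatory subunit in S-adenosylmethionine synthesis, stood at -0.58 ± 0.15 in CH and -0.66 ± 0.15 in PCL, and its other probe at -0.01 and -0.11. The Ahcy relative Ahcyl1 stood at 0.58 ± 0.08 in LIF.

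Of 18 germline genes known to be silenced by promoter methylation in the epiblast, 16 had a probe and 1, Tex19.1, was detected. It differed from untreated by -0.04 ± 0.18 in PD, -0.09 ± 0.15 in CH, -0.16 ± 0.16 in LIF and -0.46 ± 0.18 in PCL. The other 15 were detected on no array.

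Markers of the feeder cells also differed on the arrays where Dnmt3l was low. In bulk RNA, fewer cells of a type and less RNA per cell cannot be told apart. Of 12 feeder fibroblast markers with a probe, 7 or 8 were detected on each array, and Col1a2, Col3a1, Pdgfrb and Postn were detected on none. Their summed level was 8658 in PD, 5563 in CH, 5618 in LIF and 7300 in PCL, against 5371 in untreated cells, in units of background-corrected intensity. The sum is weighted towards the brightest marker, Acta2, whose log2 level was 12.42 in PD and 12.25 in PCL, against 11.67 in untreated cells. All 8 detected markers stood above 0 in PD, with a median of 0.50, and 5 of 8 in PCL, with a median of 0.21. Thy1, Lum and Sparc stood below 0 in PCL, at -0.15 ± 0.12, -0.23 ± 0.18 and -0.14 ± 0.09. Lox, a collagen crosslinking enzyme, stood at 2.12 ± 0.11 in PD and 1.39 ± 0.11 in PCL, and the collagen gene Col1a1 stood at 1.12 ± 0.17 in PCL. On the same arrays Pou5f1, the pluripotency factor of the epiblast cells, stood at 0.05 ± 0.09 in PD and -0.39 ± 0.10 in PCL, and its other probe at -0.60 and -0.42. The part of the feeder cells in the Dnmt3l and Dnmt3b values was not tested.

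Markers of the epiblast and of the naive state stood apart with PCL, where Dnmt3b was lowest. Of 8 detected epiblast stem cell markers, a list that holds Dnmt3b itself, 6 lay below 0 in PCL. At least 2-fold lower were 2 of the 8, as were 0.680% of all genes. These 2 were the POU factor Pou3f1 at -1.61 ± 0.12 and the growth factor Fgf5 at -1.16 ± 0.13. The factor Otx2 stood at 0.31 ± 0.08 in PD, -0.34 ± 0.09 in CH, 0.41 ± 0.09 in LIF and -0.71 ± 0.10 in PCL. In PD the Nodal coreceptor Tdgf1 stood at -1.09 ± 0.20, and in CH the ligand Nodal stood at 1.33 ± 0.16 and Pou3f1 at -1.16 ± 0.09. The epiblast markers above 0 in PCL were Nodal, at 0.98 ± 0.15, and the Nodal antagonist Lefty1, at 0.64 ± 0.07. Fgf5 stood at -0.91 ± 0.12 in PD, 0.97 ± 0.10 in CH and -0.30 ± 0.12 in LIF. Of 7 detected naive state markers, 6 lay above 0 in PCL and 2 were at least 2-fold higher, as were 0.706% of all genes. These 2 were the Kruppel-like factor Klf2 at 2.17 ± 0.13 and Fbxo15 at 1.26 ± 0.13. The naive marker below 0 was Tbx3, at -0.67 ± 0.29, which was detected in untreated cells and not in PCL. The naive marker Zfp42 stood at -0.35 ± 0.26 in PD and 0.06 ± 0.22 in PCL. The summed level of the naive list was 840 in PD, 956 in CH, 991 in LIF and 1590 in PCL, against 765 in untreated cells.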

How the data were processed

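The members and gene lists were chosen with earlier results of these data known. Per the file headers, the authors deposited for each array a mean bead intensity on a linear scale, the bead standard error and a detection p-value per probe. Per the submitters' processing notes, the software was BeadStudio. A second table of intensities, processed by the authors and deposited beside the scanner files, served as an alternative (scaling not given in the sources used here): its columns are on a linear scale with medians of 99.5 to 100 and leave low values empty. Per the labels' protocols, 400 ng RNA was amplified and labelled with Cy3. The scanner intensities were corrected and normalized by the neqc function (limma 3.58.1, R 4.3.3; offset 16), which pulls differences of dim probes towards 0, and taken to log2. A probe was detected at a detection p under 0.01, and a comparison took genes detected on at least 1 of its 2 arrays. The number of arrays limits the precision. Bead errors were propagated assuming that the corrected signal moves with the raw one. Of the probes, 23978 had 1 gene symbol, 0 several and 1719 none in the platform annotation. Entrez identifiers of 23962 matched RefSeq (GRCm38.p6). The brightest probe represented a gene in counts over all genes. Every member probe was named, and of each list the genes at least 2-fold from untreated or up to 2 with the largest differences, beside a fixed panel. The planned contrast included Dnmt3a and Tet1, which gave no measured level and were left out. Promoter windows came from RefSeq. Tables and figures used Python 3.11.15, pandas 2.3.3, numpy 2.4.6 and matplotlib 3.10.9, and the normalization was tested on simulated data.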

Additional observations from a re-analysis of the deposited data

How the results depend on the processing

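No paired analysis was possible because each condition had 1 array, and no array could be left out of a condition. The contrast of de novo against maintenance genes kept its sign in all 4 comparisons under every alternative run. With PD it was -0.62 without background correction, and without Dnmt3l it was -0.14 with PD, -0.11 with LIF and -0.49 with PCL. Counts of genes at least 2-fold from untreated were 73, 74, 231 and 106 with PD, CH, LIF and PCL. They were 15, 15, 139 and 28 without background correction and 405, 382, 571 and 413 with an offset of 1, and with an offset of 50 they were 25, 22 and 45 with PD, CH and PCL. The fewer calls at a larger offset follow from its pull on dim probes. Dnmt3l ranged from -1.28 to -0.84 with PD and from -1.23 to -0.81 with PCL on its brighter probe. Median scaling moved the median of all genes to 0.19 with LIF, and Dnmt3b stood at 0.09 with LIF there. Leaving the LIF array out of the normalization, an alternative chosen after seeing the data, gave -1.17 with PD and -1.12 with PCL for Dnmt3l.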

Other observations

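The sum of the 3 single differences from untreated was set beside the PCL difference for each detected probe. All of these values share the untreated array. For Dnmt3l, PCL differed from the sum by 0.19 ± 0.20 and -0.20 ± 0.22 on its 2 probes. For Dnmt3b the brighter probe lay below the sum, at -0.79 ± 0.12, and the dimmer one above it, at 0.44 ± 0.22. Dnmt1 lay below the sum by -0.66 ± 0.20 and the brighter Uhrf1 probe by -1.04 ± 0.14, since each single agent stood above untreated for both genes and PCL stood close to it, while the dimmer Uhrf1 probe differed by 0.14 ± 0.36.

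The 2 Dnmt3b probes drew apart in the same direction in all 4 comparisons with untreated. The brighter probe's difference exceeded that of the dimmer probe by 0.54 ± 0.12 in PD, 0.60 ± 0.13 in CH, 0.85 ± 0.12 in LIF and 0.76 ± 0.13 in PCL. The Uhrf1 probes also drew apart in 1 direction, by 0.67 ± 0.18 in PD, 0.38 ± 0.18 in CH, 0.38 ± 0.18 in LIF and 0.25 ± 0.22 in PCL. For each gene the 4 comparisons share 1 untreated array. Their common direction is thus not 4 separate observations. The Dnmt3b probes are annotated to different RefSeq transcripts and the Uhrf1 probes to the same one. The 2 Dnmt3l probes, also annotated to 1 transcript, differed by -0.05 ± 0.15 in PD, 0.01 ± 0.14 in CH, -0.36 ± 0.14 in LIF and 0.01 ± 0.16 in PCL.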
